A study of Homo sapiens with 2 samples.

Results

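The enzymes, transporters and regulators of glycolysis and of the pentose phosphate pathway were read on 2 arrays of MEG-01 cells, 1 for the control vector and 1 for GAS2DN. The 35 genes were listed by their place in the pathway, among 19775 genes with a probe set assigned to them alone. All probe sets that the platform's table assigns to a single gene of the list were taken, 78 probe sets of 33 genes. SLC16A1 and SLC16A3, the lactate exporters MCT1 and MCT4, had none, so that no signal is given for them.

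MEG-01 is a megakaryoblastic line from chronic myeloid leukaemia, bought from a cell bank and grown in RPMI1640 with 10% FBS. The control cells carried a lentivirus with the yellow fluorescent protein Venus, and the other cells carried GAS2DN, a truncated and dominant negative form of GAS2, followed by an internal ribosome entry site and Venus. The spleen focus forming virus promoter drove the transgene, and fluorescent cells of both kinds were sorted 3 days after transduction ended. RNA from 3 samples of each condition was mixed in equal amounts before it was hybridised, so that every condition had 1 array and no spread between replicates. No test could therefore be made and no p-value is given, and having 1 array each limits how precise any value is. Ratios are GAS2DN over Venus signals, and log2 ratios are GAS2DN minus Venus.

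GAS2 itself was dim on both arrays, at 24.3 with Venus and 34.7 with GAS2DN in its 1 probe set, where the array medians were 55.6 and 69.1. Whether this probe set reads the truncated transgene was not tested, so these signals do not measure its expression. The paper reports that GAS2 protein was seen in MEG-01 cells by immunofluorescence. Of 9 megakaryoblast markers with a probe set, 7 were above the array median on both arrays, including GATA1 and ITGA2B, while the platelet chemokines PF4 and PPBP were below it on both. The highest marker of T cells, B cells, monocytes or fibroblasts was the monocyte gene LYZ, with 275 in Venus and 259 in GAS2DN cells. Above the Venus median were 2 of 5 T cell, 2 of 3 B cell, 1 of 4 monocyte and 0 of 5 fibroblast markers. On the GAS2DN array 2, 2, 1 and 1 were above the median.

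Glycolysis splits glucose into pyruvate and yields ATP and NADH on the way, and lactate dehydrogenase gives back NAD+ by turning pyruvate into lactate. The pentose phosphate pathway branches off from glucose 6-phosphate and supplies NADPH and ribose for nucleotides. Pyruvate dehydrogenase carries pyruvate into the TCA cycle, and its kinases shut it off. Leukaemia cells, like other fast dividing cells, are known for a high use of glucose, and several genes of the pathway are textbook targets of HIF1 and MYC.

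Most genes of the pathway were bright on both arrays and within 1.5-fold between them. A probe set was taken as eligible where the brighter of its 2 signals reached the median of its array, and each gene was represented by its main probe set, the brightest by mean log2 signal, with names ending in _x_at used only for genes that have no other kind. The main probe set was eligible for 32 of the 35 genes, which are called measured below, and for 13086 of all genes. The median percentile of the 32 main probe sets among all probe sets of an array, leaving out the platform's controls, was 95.4 for Venus and 96.1 for GAS2DN cells. SLC2A1 and ALDOC, 2 of the 32, had a ratio over 1.5 and none had one under the inverse of it, where 14.3% of all measured genes were over 1.5-fold higher and 9.12% over 1.5-fold lower. The other 30 lay between 0.743 and 1.35.

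In all, 25 of the 32 genes (78.1%) had a log2 ratio above 0, with a median of 0.16 and quartiles of 0.03 and 0.28. Scaling moved this, to a median of 0.09 with loess and 0.10 with quantile normalization, where all measured genes had 0.03 and 0.04. Among all measured genes 56.2% were above 0, with a median of 0.06. A bulk signal cannot tell a difference in RNA per cell from a difference in the share of cells that hold it. The spread of ratios was smaller among bright probe sets, so the 23 genes whose main probe set was in the brightest 10%, with a mean signal of 2098 or more, were set beside the 3024 measured genes there. None of the 23 was over 1.5-fold higher or lower, where 0.661% and 2.78% of the 3024 were. Within 1.2-fold were 16 of the 23 (69.6%) and 75.4% of the 3024. SLC2A1 and ALDOC were in the next 10% by signal, where 2.04% of all probe sets of 1 gene were over 1.5-fold higher. Of the 23, 19 were above 0 with a median of 0.16, and of the 3024, 56.9% were with a median of 0.04. In the brightest 1% of all probe sets of 1 gene, 411 with a mean signal of at least 14356, the median was 0.16 and 80.8% were above 0. This 1% held 14 probe sets of the pathway, from ALDOA, ENO1, GAPDH, LDHA, LDHB, PGAM1, PGK1, TKT and TPI1, all 14 above 0 with a median of 0.18. The part of brightness in the upward lean of the pathway was not tested.

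**Figure D1:**
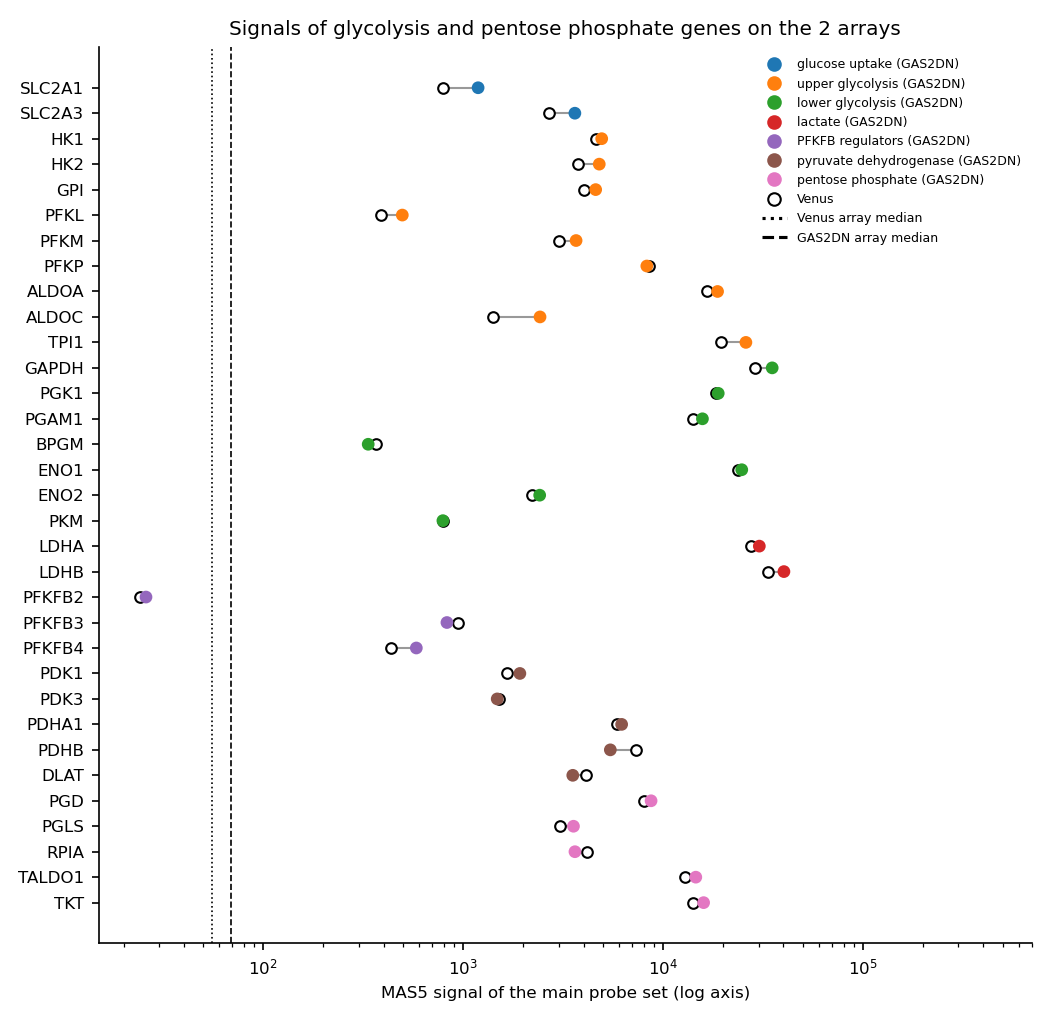
MAS5 signal (log axis) of the main probe set of each of 33 genes on the Venus array (open circles) and the GAS2DN array (filled circles, coloured by role), with the median signal of each array as a vertical line. Circles of 1 gene lie close together, with the widest gap at ALDOC (1417 and 2422), and PFKFB2 was below both medians.

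Glucose enters by transporters of the SLC2A family, and their signals were higher in GAS2DN cells in 4 of 5 probe sets of SLC2A1 and SLC2A3. SLC2A1 encodes GLUT1, the transporter of basal glucose uptake. Its main probe set had 790 in Venus against 1187 in GAS2DN cells, giving a ratio of 1.503 that was just past the threshold of 1.5-fold. Its second probe set had 49.9 and 131, a ratio of 2.63, with the Venus signal below the array median. The log2 ratio of the main probe set was 0.59, above the range of -0.75 to 0.55 that held the central 95% of probe sets of like signal. Of 67 eligible probe sets of the pathway 3 lay outside such a range, the main ones of SLC2A1, SLC2A3 and ALDOC. A central 95% leaves some probe sets outside by construction.

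SLC2A3 encodes GLUT3, a transporter of high affinity. Its main probe set had 2680 in Venus against 3619 in GAS2DN cells, giving a ratio of 1.35. Its log2 ratio of 0.433 was just above the central range for its brightness, which ended at 0.427. Its other probe sets went in opposite directions, from 806 to 1049, a ratio of 1.30, in 1 and from 786 to 496, a ratio of 0.631, in the other, which was the only eligible probe set of the pathway over 1.5-fold lower. The platform's table assigns 2 more probe sets to both SLC2A3 and its near copy SLC2A14, and these had ratios of 1.06 and 1.47. Transcripts of the 2 genes cannot be separated there, and the disagreement between probe sets of SLC2A3 was larger than its main difference.

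The promoter of SLC2A1 is shown because its gene had the highest ratio of the transporters. The sequence is the 250 bases before the annotated start, from RefSeq on GRCh38.p14, chr1:42958869-42959118, minus strand, written 5′ to 3′ along the gene. In this and the following promoters capitals mark ACGTG or GCGTG, the core of the hypoxia response element, on either strand, so that CACGT and CACGC are the same letters read on the other strand and CACGTG, the E-box bound by MYC, holds ACGTG on both strands.
SLC2A1: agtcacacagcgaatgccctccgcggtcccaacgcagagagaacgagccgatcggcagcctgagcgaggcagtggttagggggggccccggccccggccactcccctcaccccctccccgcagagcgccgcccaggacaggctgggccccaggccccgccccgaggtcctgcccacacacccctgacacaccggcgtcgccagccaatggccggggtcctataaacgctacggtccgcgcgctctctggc
No match stood in these 250 bases, and the 50 bases after the start held 1, GCGTG.

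The upper part of glycolysis primes glucose with phosphate and cuts it into triose phosphates. Of its 9 genes 8 had a log2 ratio above 0, with a median of 0.29, and ALDOC was over 1.5-fold higher. Hexokinase traps glucose as its phosphate, and the signals of both isozymes were high. HK1 had 4625 in Venus and 4929 in GAS2DN cells, a log2 ratio of 0.09, and HK2, the isozyme of growing and tumour cells, had 3750 and 4792, a log2 ratio of 0.35. The 2 dimmer probe sets of HK2 had 500.3 and 451, at 0.902 times, and 367 and 525, a ratio of 1.43, so that they differed in direction. GPI, which turns glucose 6-phosphate into fructose 6-phosphate, had 4037 and 4598, a log2 ratio of 0.19.

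Phosphofructokinase makes the committed step of glycolysis from 3 subunits named for platelet, muscle and liver. The platelet subunit PFKP gave the highest signal of the 3 in this megakaryoblastic line, 8530 in Venus and 8288 in GAS2DN cells, percentile 98.0 and 97.9 of the arrays and a log2 ratio of -0.04. The muscle subunit PFKM had 3007 and 3669, a log2 ratio of 0.29, and the liver subunit PFKL had 388 and 496, a log2 ratio of 0.35. Probe sets differ in how well they hybridise, so these signals are given side by side and are no order of RNA amounts. A second probe set of PFKL, of the kind that can bind related transcripts, had 707 and 765.

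Aldolase cuts fructose bisphosphate into triose phosphates. ALDOA, the muscle and general form, was near the top of both arrays, with 16639 in Venus and 18718 in GAS2DN cells, percentile 99.2 on both, and its log2 ratios were 0.17, 0.26 and -0.19 over 3 probe sets. ALDOC, the form first known from brain, had 1 probe set with 1417 and 2422, percentile 88.0 and 92.5. Its ratio of 1.71, a log2 ratio of 0.77, was the highest of all main probe sets of the pathway and above the same central range (-0.75 to 0.55), but no second probe set of ALDOC was there to set beside it. TPI1, which interconverts the triose phosphates, had 19414 and 25942 in its main probe set, a log2 ratio of 0.42, while its second bright probe set had 16841 and 17347, a log2 ratio of 0.04. The dimmest probe set of TPI1 had 350 and 307, a log2 ratio of -0.19.

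The promoter of ALDOC is shown as that of the gene with the highest main ratio, chr17:28576896-28577145 on GRCh38.p14 from RefSeq, minus strand, the 250 bases before the start.
ALDOC: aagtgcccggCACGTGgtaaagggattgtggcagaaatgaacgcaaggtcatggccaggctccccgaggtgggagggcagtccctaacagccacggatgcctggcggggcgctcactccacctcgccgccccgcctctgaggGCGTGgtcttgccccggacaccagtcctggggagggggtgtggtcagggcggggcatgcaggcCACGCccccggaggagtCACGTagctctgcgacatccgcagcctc
It held 5 matches to ACGTG or GCGTG, counting both strands, and 1 CACGTG.

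The lower part of glycolysis turns triose phosphate into pyruvate and returns ATP. Of its 7 genes 6 had a log2 ratio above 0 in the main probe set, with a median of 0.06, and none was over 1.5-fold. By the median over eligible probe sets PGK1, ENO1 and PKM were below 0, at -0.19, -0.17 and -0.20. The other genes of this part kept their sign. GAPDH, the dehydrogenase that is a common reference gene, had 28899 in Venus and 35115 in GAS2DN cells, a log2 ratio of 0.28, with 0.28 and 0.37 in the others. The platform's own control probe sets for the 5′ end, the middle and the 3′ end of GAPDH had log2 ratios of 0.13, 0.23 and 0.15. All 6 readings of GAPDH as deposited were higher in GAS2DN cells, by 1.10 to 1.29 times, but loess brought the main one to 0.12 and quantile normalization to 0.05 on the log2 scale. The control probe sets of ACTB had ratios of 1.28 to 1.38.

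PGK1, the phosphoglycerate kinase that makes ATP, had 4 eligible probe sets. Its brightest had 18413 and 18863, a log2 ratio of 0.03, the next had 8436 and 8512, a log2 ratio of 0.01, and the other eligible ones had log2 ratios of -0.39 and -0.40. PGAM1, the mutase of the next step, had 14121 and 15725, a log2 ratio of 0.16. BPGM, which makes bisphosphoglycerate in red cells, had 367 and 335, a log2 ratio of -0.13. ENO1, the general enolase, had 23725 and 24733 in its main probe set, a log2 ratio of 0.06, and its other eligible probe sets both had -0.17. ENO2, the neuronal enolase, had 2198 and 2413, a log2 ratio of 0.13, at percentile 91.7 against 99.5 for ENO1 in Venus cells. PKM, the pyruvate kinase of the last step, had 791 in both conditions, a log2 ratio of 0.00, and 132 and 99.6 in its second probe set.

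Lactate dehydrogenase, the enzyme that ends aerobic glycolysis in growing cells, gave some of the brightest signals of the arrays. LDHA, the muscle subunit, had 27625 in Venus and 30280 in GAS2DN cells, a log2 ratio of 0.13. LDHB, the heart subunit, had 33462 and 40198 in its main probe set, a log2 ratio of 0.26, and 33743 and 37332 in the other, a log2 ratio of 0.15. Both genes were at percentile 99.6 or higher on both arrays. The direction of LDHA depended on the scaling and LDHB came closer to 0, since loess gave log2 ratios of -0.02 for LDHA and 0.09 for LDHB, and quantile normalization gave -0.05 and 0.03. The LDHA promoter is shown as that of a textbook HIF1 and MYC target in the pathway, chr11:18394313-18394562 on GRCh38.p14 from RefSeq, plus strand.
LDHA: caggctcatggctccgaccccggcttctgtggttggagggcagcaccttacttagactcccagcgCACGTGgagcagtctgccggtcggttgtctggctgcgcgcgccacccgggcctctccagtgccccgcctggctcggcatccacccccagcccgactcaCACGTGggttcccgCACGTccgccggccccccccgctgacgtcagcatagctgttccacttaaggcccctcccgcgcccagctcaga
It held 5 matches in these 250 bases and 2 CACGTG.

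The bifunctional PFKFB enzymes set the level of fructose 2,6-bisphosphate, which drives phosphofructokinase. PFKFB3, the form with the strongest kinase activity, had 941 in Venus and 829 in GAS2DN cells, a log2 ratio of -0.18. PFKFB4 had 435 and 583, a log2 ratio of 0.42, and its second probe set was dim. PFKFB2, the heart form, was below the array median in all 4 probe sets, from 24.2 to 25.9 in the main one, and was left out of the counts.

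The role with the lowest median, -0.03, was pyruvate dehydrogenase, with 2 of 5 genes above 0. It takes the subunits PDHA1, PDHB and DLAT together with the kinases PDK1 and PDK3, and the median was the value of PDK3. PDHA1, the catalytic alpha subunit, had 5899 and 6201, a log2 ratio of 0.07, with 0.13 and -0.55 in the others. PDHB, the beta subunit, had 7322 in Venus and 5444 in GAS2DN cells, a log2 ratio of -0.43 that was the lowest main value of the pathway and within the central range for its brightness (-0.62 to 0.43). Its second probe set had 3368 and 3550, a log2 ratio of 0.08, so that the direction of PDHB depended on the probe set. DLAT, the acetyltransferase subunit, had 4123 and 3532, a log2 ratio of -0.22, with -0.12 and 0.10 in the others.

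The kinases that switch the complex off differed from each other by less than their probe sets did. PDK1, a HIF1 target, had 1646 and 1920, a log2 ratio of 0.22, and 245 and 334 in a second probe set, a log2 ratio of 0.45. The dimmest probe set of PDK1 had 6.50 in Venus against 69.9 in GAS2DN cells, giving a ratio of 10.7, which is a ratio over a signal far below the array median and was within the central range for such dim probe sets (-3.57 to 4.45 for its log2 ratio of 3.43). PDK3 had 1512 and 1479, a log2 ratio of -0.03, and 0.00 to 0.51 in 4 dimmer probe sets.

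The PDHB promoter is shown for contrast, as that of the gene with the lowest main ratio, chr3:58433833-58434082 on GRCh38.p14 from RefSeq, minus strand.
PDHB: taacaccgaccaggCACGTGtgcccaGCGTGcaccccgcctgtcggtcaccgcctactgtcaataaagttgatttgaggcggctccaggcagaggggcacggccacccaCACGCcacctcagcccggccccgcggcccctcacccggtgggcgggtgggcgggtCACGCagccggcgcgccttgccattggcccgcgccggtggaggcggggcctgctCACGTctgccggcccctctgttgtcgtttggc
It held 6 matches and 1 CACGTG, against 5 and 1 in the promoter of ALDOC. RefSeq start windows of 300 bases, 250 before to 50 after the start, were found for 31 of the 32 measured genes, 53 windows in all, and none for SLC2A3. ACGTG or GCGTG stood in 35 of the 53 (66.0%), against 59.3% of 15220 windows of all measured genes and 48.4% of all 35116. CACGTG stood in 7 (13.2%), against 9.13% and 7.26%. Over any window of a gene, the median log2 ratio was 0.13 for the 27 genes with ACGTG or GCGTG and 0.18 for the 4 without, and it was 0.17 for the 7 with CACGTG.

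The pentose phosphate genes had a median log2 ratio of 0.17, with 4 of 5 above 0 and none over 1.5-fold in the main probe set. In the oxidative branch, which makes NADPH, PGLS, the lactonase, had 3066 in Venus and 3561 in GAS2DN cells, a log2 ratio of 0.22. Its dimmer probe sets had log2 ratios of 0.12, 0.64 and -0.24, the second of them from 148 to 230, a ratio of 1.56. PGD, which releases ribulose 5-phosphate, had 7994 and 8703, a log2 ratio of 0.12.

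In the branch that exchanges sugars with glycolysis, the bright transferases were alike. TALDO1, the transaldolase, had 12928 and 14568, a log2 ratio of 0.17, and TKT, the transketolase, had 14045 and 15939, a log2 ratio of 0.18, with 0.15 in its second probe set and -0.19 in the dimmest. RPIA, the isomerase that makes ribose 5-phosphate, had 4149 and 3622, a log2 ratio of -0.20, the only gene of the branch with a higher signal in Venus cells.

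**Figure D2:**
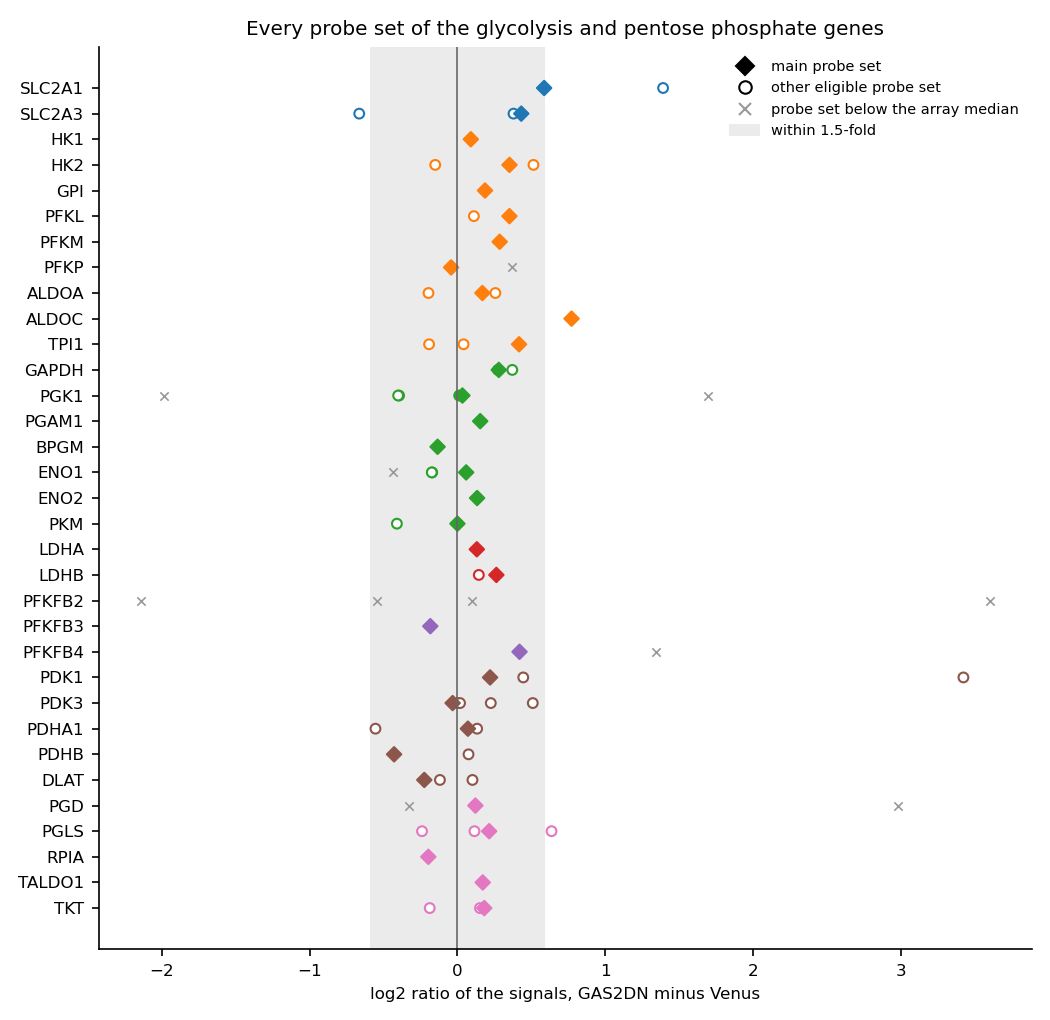
Log2 ratio (GAS2DN minus Venus) of every probe set of each gene, with the main probe set as a diamond, other eligible ones as circles, probe sets below the array median as crosses, and the range within 1.5-fold shaded. Of 67 eligible probe sets 61 lie within 1.5-fold, and the eligible probe sets of SLC2A3 and PDK1 spread over more than 1 log2 unit.

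Probe sets of 1 gene read the same pair of RNA pools, so their spread is no replicate error, but it is the repeated measure that the arrays hold. Of 67 eligible probe sets of the pathway 5 (7.46%) were over 1.5-fold higher and 1 (1.49%) over 1.5-fold lower, against 15.5% and 11.9% of all 24840 eligible probe sets. The 5 belonged to SLC2A1 with 2, ALDOC, PDK1 and PGLS, and the 1 to SLC2A3. The dimmer one of SLC2A1 (49.9 in Venus) and that of PDK1 (6.50) were below the Venus median of 55.6. Both passed the filter only through their GAS2DN signal. Of the 67, 37 were in the brightest 10%, where 0.754% of probe sets of 1 gene were over 1.5-fold higher and 3.07% lower. Of 18 genes with at least 2 eligible probe sets, 5 had all of them above 0, none had all below 0, and 13 (72.2%) had both signs, against 60.6% with both signs among 6422 genes. The 5 were SLC2A1, PFKL, GAPDH, LDHB and PDK1. For SLC2A1 the agreement rests on the dimmer probe set that passed the filter only through its GAS2DN signal. The median distance between the lowest and the highest log2 ratio of a gene was 0.48 over the 18 genes and 0.64 over the 6422.

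The share above 0 differed by the kind of probe set. Over all eligible probe sets of the pathway, 30 of 37 with names ending in _s_at or _x_at were above 0 and 17 of the 30 others were, with median log2 ratios of 0.13 and 0.05, and over all genes 56.0% and 53.7% were, with medians of 0.05 and 0.04. In the brightest 10%, 23 of 26 probe sets of the first kind, which can bind several transcripts or related genes, were above 0, with a median log2 ratio of 0.15. Of the 11 others there 5 were above 0, with a median of -0.04. Over all genes of this brightness 60.2% of the first kind and 53.6% of the second were above 0, with medians of 0.06 and 0.02. The part of cross-hybridisation in this was not tested.

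**Figure D3:**
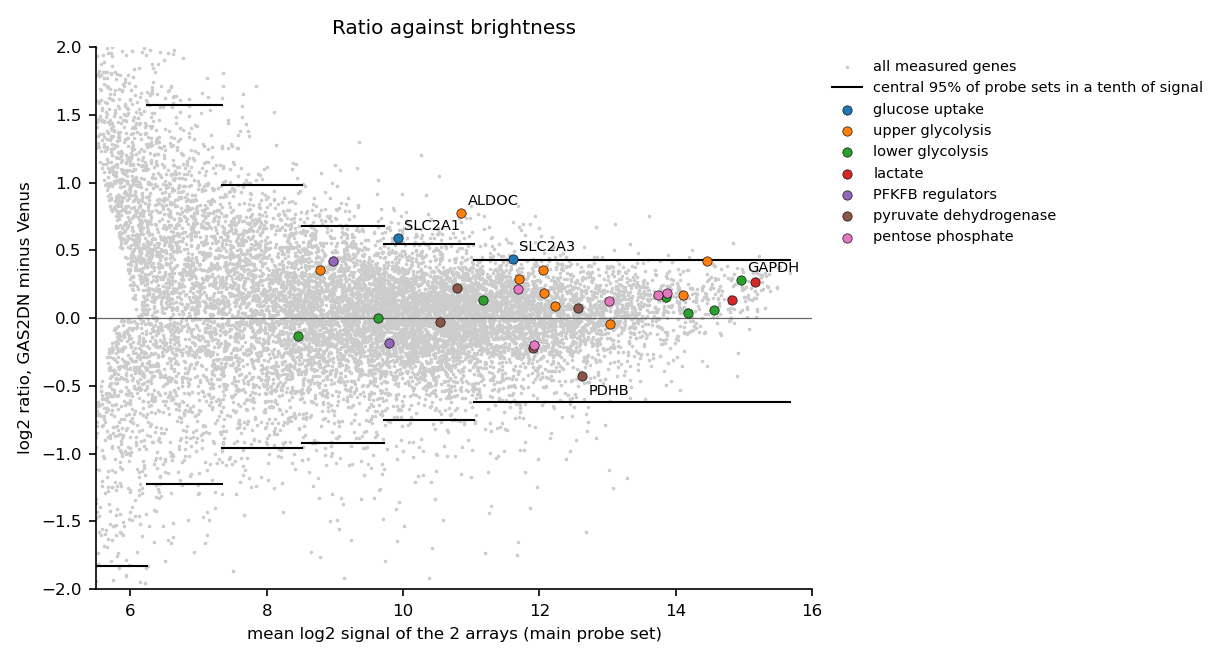
Log2 ratio (GAS2DN minus Venus) of main probe sets against their mean log2 signal on the 2 arrays, for all measured genes (grey) and the pathway's genes (coloured by role), with lines for the central 95% of probe sets in each of 10 classes of signal. Beyond the axis limit of 2 lie 665 grey points. ALDOC, SLC2A1 and SLC2A3 lie above or at the upper line, and most of the brightest genes lie just above 0.

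By role, the median log2 ratio was 0.51 for the 2 glucose transporters, 0.29 for upper and 0.06 for lower glycolysis, and 0.20 for the 2 lactate dehydrogenases. It was 0.12 for the 2 PFKFB regulators, 0.17 for the pentose phosphate genes and -0.03 for pyruvate dehydrogenase taken with its kinases. With so few genes in each role and 1 array per condition, none of these medians could be tested against another.

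Other genes of the same reactions, from a list of 35 isozymes, carriers and regulators, gave 22 that were measured. Their median log2 ratio was 0.04, and 14 (63.6%) were above 0, against 56.2% of all measured genes. GAPDHS, the sperm form of GAPDH, was the only 1 of these (4.55%) over 1.5-fold higher, against 14.3% of all measured genes. It had 39.7 in Venus, below the array median, and 111 in GAS2DN cells, 2.79 times as much, and was eligible only through the GAS2DN signal. None was over 1.5-fold lower, against 9.12%. These shares of all measured genes were not matched for brightness, and were 2.84% and 4.63% with the filter at percentile 75. The mitochondrial pyruvate carrier subunits MPC1 and MPC2 had 2533 and 2745, and 3194 and 3295. The remaining subunits of pyruvate dehydrogenase were level, DLD with 6565 and 6638 and PDHX with 2122 and 2117.

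**Figure D4:**
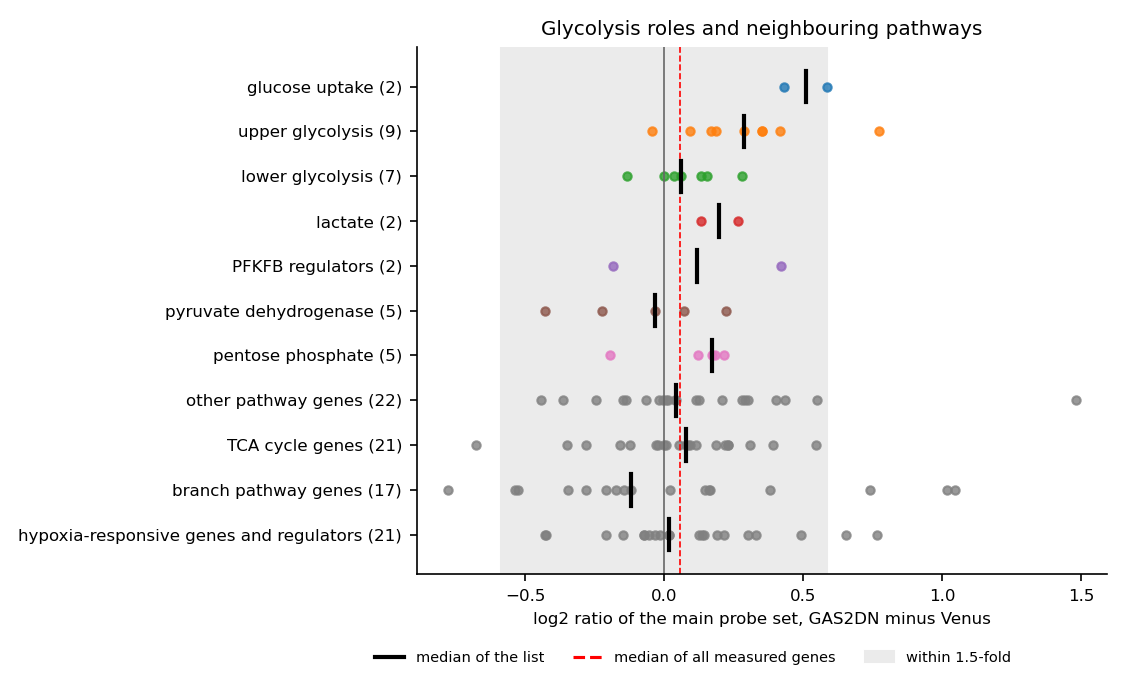
Log2 ratio (GAS2DN minus Venus) of the main probe set of each measured gene, by role in the pathway and for 4 neighbouring gene lists (number measured in brackets), with the median of each list (black bar), that of all measured genes (red line, 0.06) and the range within 1.5-fold (shaded). The glucose uptake bar is highest at 0.51 and the branch pathway bar lowest at -0.12.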

How the data were processed

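RNA of Venus and GAS2DN cells was pooled from 3 samples per condition and hybridised to 1 Affymetrix Human Genome U133 Plus 2.0 array each. The authors deposited log2 signals, and the submitters' processing notes name MAS5, with no version. MAS5 scales each array to a common mean, and both had a 2% trimmed mean of 500.1. It also makes ratios of dim probe sets noisy. The values hold no detection calls and no depth.

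Of 54675 probe sets, 41091 are assigned to 1 gene by the platform's table, whose symbols were updated by gene identifier. Log2 ratios were taken per probe set, and the steps were tested on simulated data. All 35 genes were accounted for in pathway order. Of the other lists, at most 6 genes each way over 1.5-fold by the main probe set were named by rule, and further genes were chosen after their values were seen. The genes and lists were chosen with earlier results of these data known. The alternatives changed the filter, scaling, choice of probe set, low signals and fold. Protein sequences were not used here. Promoter windows came from RefSeq (GRCh38.p14). Tools were Python 3.11.15, statsmodels 0.14.6 (loess), matplotlib 3.10.9 (figures), numpy 2.4.6, pandas 2.3.3 and scipy 1.17.1.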

Additional observations from a re-analysis of the deposited data

How the results depend on the processing

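The counts of 2 genes over 1.5-fold higher, 0 lower and 25 of 32 above 0 and the median log2 ratio of 0.16 were recomputed under 12 alternatives, and the counts of higher and lower genes also at other folds. No gene was over 2-fold or 3-fold (0 higher). Over 1.5-fold higher, 1 gene was left after centring the log2 ratios and 1 after adding the array median to both signals, since SLC2A1 fell just short, and 1 by the second-brightest eligible probe set, which ALDOC lacks. That probe set, which 18 genes have, gave 14 of 18 above 0 and a median of 0.13. The 1 gene over 1.5-fold by it was SLC2A1, whose dimmer probe set passed the filter only through its GAS2DN signal. With _x_at names taken last in that choice, an alternative added after seeing the data, 1 gene was higher, 1 lower (SLC2A3) and 11 of 18 above 0, with a median of 0.045. With names ending in _s_at or _x_at left out, 10 of 20 genes were above 0 and the median was -0.015, where the median of all genes was 0.05. Under the other alternatives the median was between 0.09 with loess and 0.17 with the filter at percentile 75. Over all genes the shares over 1.5-fold higher and lower were 12.2% and 10.9% with loess, against 14.3% and 9.12%. They were 2.84% and 4.63% with the filter at percentile 75.

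The filters and the raising of low signals leave a gene's own value as it was, and 160 of 343 values of single genes were identical to the reported ones. Among all 343, 11 genes (ENO1, HK2, LDHA, PDHA1, PDHB, PDK3, PGK1, PKM, SLC2A3, TKT and TPI1) had the other sign at least once. No paired analysis was possible because each condition has 1 array.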

Other observations

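The pathways that leave glycolysis or follow it gave these values. The shares of all measured genes set beside them and beside the hypoxia list were not matched for brightness. Ratios over 1.5-fold were rarer among brighter genes, with 2.84% higher and 4.63% lower under the filter at percentile 75. Of 21 measured TCA cycle genes none was over 1.5-fold higher, against 14.3% of all measured genes, and 1 (4.76%) was lower, against 9.12%. That gene was SUCLG2, a subunit of succinyl-CoA ligase, with 2187 in Venus against 1368 in GAS2DN cells, giving a ratio of 0.626. The other eligible probe sets of SUCLG2 were brighter but had names ending in _x_at, and gave 2829 and 3237, a ratio of 1.14, and 3002 and 2859, a ratio of 0.952. The call of lower thus rests on the dimmest eligible probe set, and a further dim one was not eligible. CS, the citrate synthase of the entry step, had 8495 and 12416, a log2 ratio of 0.55. The median log2 ratio of the list was 0.08.

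Among 17 measured genes of branch pathways the median log2 ratio was -0.12. Over 1.5-fold lower was PSPH, the phosphatase of serine synthesis, with 1444 in Venus and 843 in GAS2DN cells, 1 of 17 (5.88%) against 9.12% of all measured genes, and its second probe set had 682 and 509. Over 1.5-fold higher were 3 of 17 (17.6%) against 14.3% of all measured genes. They were PMM1, a phosphomannomutase, with 132 and 274, PYGB, the brain glycogen phosphorylase, with 34.5, below the array median, and 69.9, and GYS1, the muscle glycogen synthase, with 298 and 499. PYGB entered this count only through its GAS2DN signal, which was just above the median of that array, 69.1. Its other probe set had 35.1 and 48.2 and was not eligible.

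Of 21 measured hypoxia-responsive genes and regulators 2 (9.52%) were over 1.5-fold higher, against 14.3% of all measured genes. P4HA1, a collagen prolyl hydroxylase, had 1678 and 2856, a ratio of 1.70. ARNT, the partner of HIF1A, had 330 and 520, a log2 ratio of 0.65. Its other eligible probe sets had 0.00, -0.01 and, from a dim Venus signal, 3.59. None was over 1.5-fold lower, against 9.12% of all measured genes, and the median log2 ratio was 0.02. Above 0 were 12 and below it 9, the lowest being DDIT4 with 4628 and 3441, a log2 ratio of -0.43. HIF1A had 5969 and 6600, VEGFA 2057 and 2036, and MYC 15845 and 17273.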
